A study of Homo sapiens with 16 samples.

Results

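The genes described here are 9 genes of the G1 phase of the cell cycle: the D-type cyclins CCND1, CCND2 and CCND3, the cyclin-dependent kinases CDK4, CDK6 and CDK2, and the pocket proteins RB1, RBL1 and RBL2. They were taken by name from the 34691 names of the deposited intensity table, and all 9 were present and were among the 17126 genes tested. The cells were MDA-MB-231, an established human breast cancer line that lacks the estrogen and progesterone receptors. They were treated for 48 h with entinostat (an inhibitor of class I histone deacetylases), all-trans retinoic acid (ATRA, a ligand of retinoic acid receptors) and doxorubicin (an anthracycline that damages DNA through topoisomerase II). Every combination was made, with 2 arrays in each of 8 groups. The groups were DMSO (the vehicle), entinostat at 2.5 µM, ATRA at 1 µM, doxorubicin at 0.2 µM, entinostat plus ATRA, entinostat plus doxorubicin, ATRA plus doxorubicin, and the 3 drugs together. All groups come from 1 cell line, in DMEM with serum. Whether the numbered replicates were grown separately is not stated in the labels, and the p-values therefore cover only the spread among these arrays, which could be technical.

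In mammalian cells the D-type cyclins bind CDK4 or CDK6, and the active kinases phosphorylate RB1, RBL1 (p107) and RBL2 (p130). Unphosphorylated pocket proteins bind E2F transcription factors and hold down their target genes; cyclin E with CDK2 continues the phosphorylation as cells pass into S phase. CDK inhibitors such as CDKN1A (p21) and the INK4 proteins act on these kinases. The arrays measured mRNA only, so neither kinase activity nor phosphorylation of the pocket proteins was measured.

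The line's mesenchymal markers VIM, CD44 and MSN were detected on 16 of 16 arrays, with VIM signals of 11816.6 to 18801.8, while SPARC was detected on 3 arrays (signals of -11.3 to 29.7). The receptors ESR1 and PGR were detected on 0 arrays, and so was the intestinal keratin KRT20. The epithelial gene CDH1 and the receptor ERBB2 (signals of 32.5 to 81.6) were each detected on 1 array. Detection here is a deposited p-value below 0.05, which could miss clear signals, as for CDKN1A below. Of the markers of blood, endothelium and fibroblasts, PTPRC, CD3E, DCN and LUM were detected on 0 arrays, CDH5 on 1, and PECAM1 on 13 with signals of 11.3 to 104.3. PECAM1 was lower with doxorubicin without entinostat (-0.55 on the log2 scale, adjusted p = 0.00875 in limma) and with it (-0.65, 0.00217), and in 3 of the 4 doxorubicin groups against DMSO (-0.61 to -0.85). Of the 4 mesenchymal markers, doxorubicin lowered 0 without entinostat and CD44 (-0.42, adjusted p = 0.0150) and VIM (-0.37, 0.00490) with it, and CD44 was also lower under the 3 drugs against DMSO (-0.71, 0.00602). The part of these shifts in the results below was not tested. In cultured cells measured in bulk, fewer cells of a state and less RNA per cell cannot be told apart. Between 11402 and 12748 genes were detected per array, and the number of arrays limits the precision. Signals are the deposited intensities, in arbitrary units after background subtraction. Log2 values are quantile-normalized signals with an offset of 50, which shrinks the differences of dim genes. Probes differ in brightness, so levels are compared between groups for 1 gene and never between genes.

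Promoter sequence was available in the RefSeq table (GRCh38.p14) for 6 of the 9 genes, and 3 (CCND1, CCND2 and CDK2) had no entry. The windows are the 250 bases before an annotated start. For 4 genes (CDK4, CDK6, RBL1 and RBL2) a window lay before the outermost start, whereas the RB1 window and the 3 CCND3 windows lay inside the gene, upstream of inner starts only. They are shown for the genes with an entry that were lower under doxorubicin both with and without entinostat, CDK6 and RBL1. CDK6 (chromosome 7, 92604921 to 92836573) is shown upstream of its outermost start, at chr7:92836574-92836823, and RBL1 (chromosome 20, 36996349 to 37095997) at chr20:37095998-37096247, both on the minus strand. Capitals mark GC boxes (GGGCGG, on either strand) in CDK6 and E2F-type motifs (TTTCCCGC, TTTCGCGC, TTTGCCGC or TTTGGCGC, on either strand) in RBL1.
CDK6: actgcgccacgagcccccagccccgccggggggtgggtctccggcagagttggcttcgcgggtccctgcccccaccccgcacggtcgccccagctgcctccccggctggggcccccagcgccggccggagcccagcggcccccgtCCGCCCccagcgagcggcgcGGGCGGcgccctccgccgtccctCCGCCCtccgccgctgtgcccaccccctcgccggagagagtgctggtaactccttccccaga
RBL1: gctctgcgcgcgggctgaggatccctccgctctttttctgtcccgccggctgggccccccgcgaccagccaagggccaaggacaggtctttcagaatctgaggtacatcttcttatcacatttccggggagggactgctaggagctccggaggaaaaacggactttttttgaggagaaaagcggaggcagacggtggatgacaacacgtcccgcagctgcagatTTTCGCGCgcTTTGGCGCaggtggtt
The CDK6 window shown held 3 GC boxes, at 105, 85 and 62 bases before the start, and was 80.0% G or C against a median of 58.0% over all windows. A second CDK6 window, inside the gene and upstream of an inner start, held 0 GC boxes and was 67.6% G or C. A GC box is the element that SP1 family factors bind, and 42.6% of 35116 windows of this length held at least 1. The RBL1 window held 2 E2F-type matches, at 26 and 16 bases before the start, and no GC box. At least 1 such match was present in 2.79% of all windows, and in none of the other windows read here; the region before the outermost start of RB1 and CCND3 was not among them. A match of letters is a description and not evidence of binding in these cells. The CDK4 window also held 3 GC boxes, and the 3 CCND3 windows held 5, 2 and 0.

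**Figure D1:**
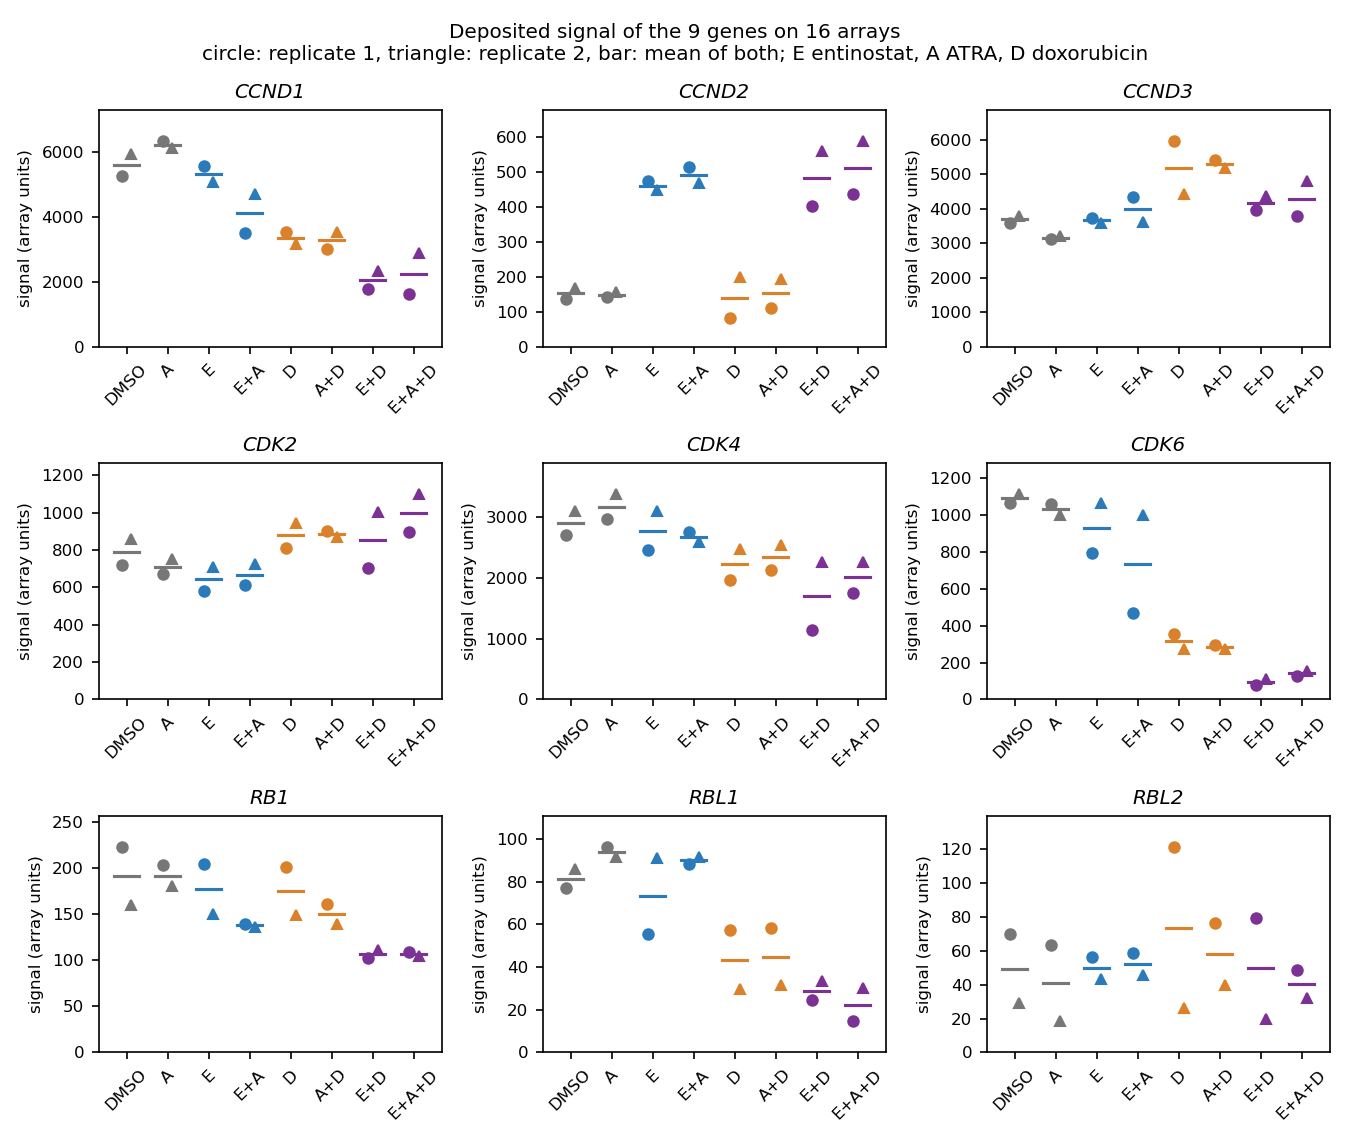
Deposited signal (arbitrary array units, linear axis from 0) of each gene on the 16 arrays; circles are replicate 1, triangles replicate 2 and bars the mean of both, with E for entinostat, A for ATRA and D for doxorubicin. CDK6 falls from 1067.7 and 1115.4 under DMSO to 78.7 and 108.8 under entinostat plus doxorubicin, and CCND2 separates the 8 arrays with entinostat (402.3 to 587.4) from the 8 without (81.4 to 198.4).

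Across the 8 groups, 6 of the 9 genes differed in limma's moderated F test, while 34.1% of all tested genes did so. CDK6 had the lowest adjusted p of the 9 (2.85e-06, rank 119 of 17126), followed by CCND2 (0.000108), CCND1 (0.000267), RBL1 (0.00303), RB1 (0.0194) and CCND3 (0.0278). CDK4 (adjusted p = 0.0791), CDK2 (0.118) and RBL2 (0.982) did not pass.

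Of the kinases that partner the D-type cyclins, CDK6 showed the largest fall. Its signals were 1067.7 and 1115.4 under DMSO, and 1062.8 and 1001 under ATRA. With entinostat they were 794.2 and 1068.2, and with entinostat plus ATRA 469.1 and 1001.6. These 4 arrays with entinostat and no doxorubicin were the most spread of the 8 without doxorubicin. With doxorubicin the signals were 357.9 and 274.8, and with ATRA plus doxorubicin 295.4 and 273.5. With entinostat plus doxorubicin they were 78.7 and 108.8, and with the 3 drugs 130 and 154.3. The 4 arrays with both entinostat and doxorubicin were thus the lowest 4, below the 4 with doxorubicin and no entinostat, which were below all 8 arrays without doxorubicin.

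Against DMSO, CDK6 fell by 1.60 (log2, SE 0.24) under doxorubicin, a 3.03-fold difference (adjusted p = 0.000958). It fell by 2.86 (SE 0.24, 7.24-fold, adjusted p = 2.38e-06) under entinostat plus doxorubicin, which was the lowest value of all 17126 genes in that comparison. Under the 3 drugs it fell by 2.47 (adjusted p = 8.61e-06), the third lowest value of all genes. Averaged over ATRA, so with 4 arrays against 4, the CDK6 level was 10.14 ± 0.06 (log2, SD, n = 4) without either drug, 8.52 ± 0.15 with doxorubicin and 7.51 ± 0.26 with both. The doxorubicin effect was -1.62 without entinostat (SE 0.17, adjusted p = 1.55e-05) and -2.24 with it (adjusted p = 4.92e-07).

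Within the doxorubicin groups, entinostat lowered CDK6 by a further 2.01-fold (log2 change -1.01, SE 0.17, adjusted p = 0.00105). With normexp fitted from the detection p-values that value was -0.36 and was not called (adjusted p = 0.367). Without doxorubicin, entinostat gave -0.38, which was not called (adjusted p = 0.216). This last value was called without entinostat plus ATRA replicate 2 (-0.63, adjusted p = 0.0101), as was entinostat plus ATRA against DMSO (-1.11, adjusted p = 0.0125; main value -0.62). Without replicate 1 of that group the values were -0.14 (adjusted p = 0.678) and -0.12 (0.925). The test of the difference between the 2 entinostat effects gave -0.62 (95% CI -1.14 to -0.11, unadjusted p = 0.0218, adjusted p = 0.242). Of the alternatives run, the difference was called in 1, without entinostat plus ATRA replicate 1 (-0.87, adjusted p = 0.0271), and its sign turned (0.16) with normexp fitted from the detection p-values.

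CDK4, the other kinase of the D-type cyclins, moved less. Its signals were 2701.6 and 3108.7 under DMSO, and 1967.4 and 2475.7 under doxorubicin. Under entinostat plus doxorubicin they were 1144.1 and 2262.9, and under the 3 drugs 1754.5 and 2264.6. The 8 arrays with doxorubicin ranged from 1144.1 to 2540.2 (median 2199.2) and the 8 without it from 2452.9 to 3380.8 (median 2860.9), with replicate 1 of entinostat plus doxorubicin the lowest of the 16. CDK4 was lower with doxorubicin in the presence of entinostat (-0.58, SE 0.17, adjusted p = 0.0183), and in the absence of entinostat the change was -0.40 (adjusted p = 0.111), with no overlap between arrays in either comparison. The first call was lost without replicate 1 of entinostat plus doxorubicin (-0.34, adjusted p = 0.0803), of entinostat plus ATRA (0.0532) or of the 3 drugs (0.0781), without replicate 2 of entinostat (0.0770), and with normexp fitted from the detection p-values (0.0612). A fit with a replicate block (a term for replicate number) called more CDK4 values lower. These were doxorubicin without entinostat (adjusted p = 0.0234) and the 3 drugs against DMSO (0.0334). Against DMSO, entinostat plus doxorubicin lowered CDK4 by 1.77-fold (-0.82, SE 0.25, adjusted p = 0.0218). That call rested on replicate 1, since without it the change was -0.35 (adjusted p = 0.298). It was also lost without DMSO replicate 1 (0.0519) or 2 (0.134), with normexp fitted from the detection p-values (0.0689), and in a fit of the 4 arrays alone (0.0574). Several CDK4 values that were not called passed without 1 array of entinostat plus doxorubicin: doxorubicin without entinostat (0.0275) and the 3 drugs against DMSO (0.0381) without either array (the latter also in a fit of its 4 arrays alone, 0.0495), and entinostat with doxorubicin without replicate 2 (-0.58, adjusted p = 0.0122; main value -0.34, adjusted p = 0.203).

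CDK2, which works with cyclins E and A later in the cycle, was called lower in none of the 13 comparisons. Its signals ranged from 583.1 to 857 (median 714.75) on the 8 arrays without doxorubicin and from 701.5 to 1099.6 (median 899.15) on the 8 with it, so the arrays overlapped. CDK2 was higher with doxorubicin in the presence of entinostat, by 1.36-fold (0.45, SE 0.12, adjusted p = 0.0109), and in its absence the change was 0.23 (adjusted p = 0.211). The call was lost without entinostat replicate 1 (0.0528), or without replicate 2 of entinostat plus doxorubicin (0.0576) or of the 3 drugs (0.0507). None of the 7 comparisons with DMSO was called for CDK2.

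The 3 D-type cyclins each showed a different pattern. CCND1, the cyclin D most often amplified in breast cancer, had signals of 5241 and 5915.7 under DMSO, 6323.9 and 6110.3 under ATRA, and 5565.1 and 5070.8 under entinostat. With entinostat plus ATRA they were 3494.6 and 4698.3. With doxorubicin they were 3511.6 and 3155, and with ATRA plus doxorubicin 3012 and 3538.8. The lowest pairs were those with entinostat plus doxorubicin (1781.1 and 2334.2) and the 3 drugs (1603.6 and 2874.2). The 4 arrays with both drugs lay below every array of the other groups.

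CCND1 was lower with doxorubicin by 1.80-fold without entinostat (-0.84, SE 0.16, adjusted p = 0.00124) and by 2.19-fold with it (-1.13, adjusted p = 8.16e-05). Against DMSO it fell by 1.44 under entinostat plus doxorubicin (adjusted p = 0.000300) and by 1.37 under the 3 drugs (adjusted p = 0.000441). Doxorubicin alone against DMSO gave -0.76 (SE 0.23, adjusted p = 0.0380). This call was lost without either array of DMSO, ATRA or doxorubicin (adjusted p of 0.0524 to 0.182), with an offset of 16 (0.0593), with no filter on detection (0.0521), and with normexp fitted from the detection p-values (0.126). ATRA plus doxorubicin against DMSO gave -0.78 (adjusted p = 0.0316), which was lost without either array of DMSO or of ATRA plus doxorubicin (0.0785 to 0.179) and with normexp fitted from the detection p-values (0.112). Entinostat gave a further decrease in the doxorubicin groups (-0.63, SE 0.16, adjusted p = 0.0128), while without doxorubicin the change was -0.35 (adjusted p = 0.230). The call was lost without replicate 1 of entinostat plus doxorubicin (0.0532) or of the 3 drugs (-0.43, 0.0527). The difference between the 2 entinostat effects was -0.28 (95% CI -0.77 to 0.20, adjusted p = 0.647).

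CCND2 rose with entinostat, and its changes with doxorubicin were not called. Its signals were 137.4 and 166.5 under DMSO, 140.4 and 155.7 under ATRA, 81.4 and 198.4 under doxorubicin, and 110.2 and 193.4 under ATRA plus doxorubicin. With entinostat they were 473.6 and 446.9, with entinostat plus ATRA 513.7 and 469, with entinostat plus doxorubicin 402.3 and 558.9, and with the 3 drugs 435.4 and 587.4. The 8 arrays with entinostat all lay above the 8 without it, and within each set the groups overlapped. Entinostat raised CCND2 by 2.48-fold without doxorubicin (1.31, SE 0.17, adjusted p = 0.000487, rank 46 from the highest of all genes) and by 2.68-fold with it (1.42, adjusted p = 9.39e-05). The difference between these was 0.11 (95% CI -0.41 to 0.64). Doxorubicin changes of CCND2 were -0.07 (95% CI -0.44 to 0.31) without entinostat and 0.05 (-0.33 to 0.42) with it.

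For CCND2 against DMSO, the values were 1.25 (entinostat, adjusted p = 0.0202), 1.34 (entinostat plus ATRA, 0.0101), 1.30 (entinostat plus doxorubicin, 0.00116) and 1.38 (the 3 drugs, 0.000787). The 4 comparisons share the same 2 DMSO arrays. The first call was lost without either array of DMSO or entinostat (adjusted p of 0.0821 to 0.226) and with normexp fitted from the detection p-values (0.0926). The second was lost without either DMSO array (0.0603 and 0.105) or without replicate 1 of entinostat plus ATRA (0.107). Normexp fitted from the detection p-values gave smaller effects averaged over ATRA, 0.69 without and 0.75 with doxorubicin, both still called.

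CCND3 rose with doxorubicin when entinostat was absent. Its signals were 3597.6 and 3785 under DMSO and 3115 and 3210.8 under ATRA, against 5962.6 and 4420.8 under doxorubicin and 5425.6 and 5173.2 under ATRA plus doxorubicin. The 4 doxorubicin arrays lay above the 4 without it, and the increase was 0.58 on the log2 scale (SE 0.11, adjusted p = 0.00147). The 8 arrays with entinostat ranged from 3597.6 to 4811.4 (median 3866.7), and among them the doxorubicin change was 0.13 (adjusted p = 0.445). The difference between the 2 doxorubicin effects was -0.45 (SE 0.16, 95% CI -0.80 to -0.11, unadjusted p = 0.0129), which was not called over all genes (adjusted p = 0.188). In the comparisons with DMSO, CCND3 gave 0.47 under doxorubicin (adjusted p = 0.0702) and 0.48 under ATRA plus doxorubicin (0.0562). The former was called without doxorubicin replicate 2 (0.68, adjusted p = 0.0335), and the latter without either array of doxorubicin (0.0312) or of the 3 drugs (0.0471), with a mean signal above 100 required (0.0466), in the authors' log2 table (0.0486), and in a fit of the 4 arrays alone (0.0382). The change with entinostat in the doxorubicin groups, -0.31 (adjusted p = 0.0754), was called without doxorubicin replicate 2 (-0.41, adjusted p = 0.0192) or replicate 2 of the 3 drugs (-0.39, 0.0383).

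**Figure D2:**
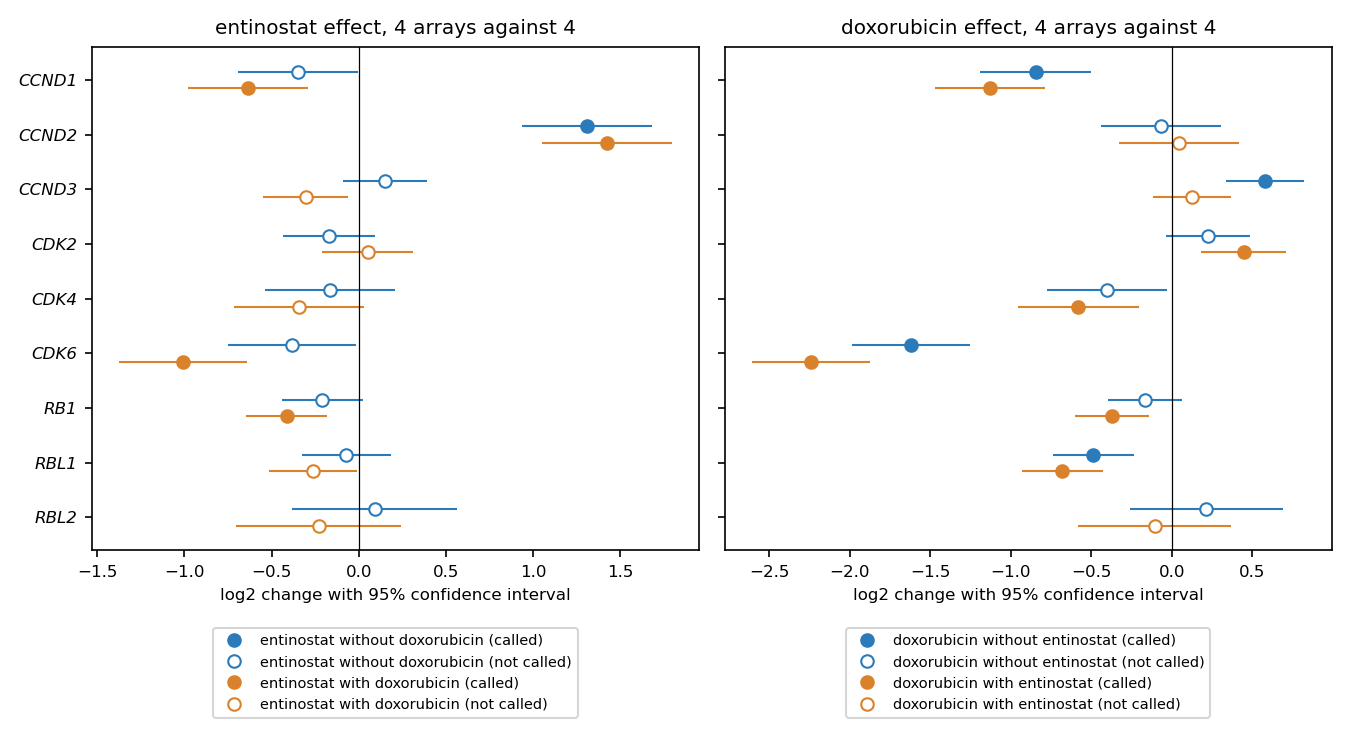
Log2 change of each gene for entinostat (left) and doxorubicin (right), each with and without the other drug, averaged over ATRA; points are estimates from 4 arrays against 4, bars are 95% confidence intervals and filled points passed an adjusted p of 0.05. CDK6 and CCND1 lie furthest to the left under doxorubicin, at -2.24 and -1.13 with entinostat, and CCND2 lies furthest to the right under entinostat, at 1.31 and 1.42.

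Among the pocket proteins, RBL1 fell with doxorubicin, RB1 fell where entinostat and doxorubicin were combined, and RBL2 passed no test. RBL1 encodes p107, whose gene is a known E2F target. Its signals were 77 and 85.8 under DMSO, 96.2 and 91.6 under ATRA, 55.5 and 90.9 under entinostat, and 88.4 and 91.6 under entinostat plus ATRA. With doxorubicin they were 57.4 and 29.5, and with ATRA plus doxorubicin 58.1 and 31.5. With entinostat plus doxorubicin they were 24.3 and 33.3, and with the 3 drugs 14.8 and 30. All but 2 of the doxorubicin arrays lay below every array without it, and those 2 were just above entinostat replicate 1. RBL1 was detected by its deposited p-value on only 3 of 16 arrays. Its signals (14.8 to 96.2) were above a background noise SD of 7.34 to 7.48 estimated from the negative signals. They were all below the noise SD of 212 to 313 that the fit from the detection p-values gave.

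RBL1 fell by 0.49 with doxorubicin in the absence of entinostat (SE 0.12, 1.40-fold, adjusted p = 0.00677) and by 0.68 in its presence (1.60-fold, adjusted p = 0.000424). With normexp fitted from the detection p-values these values were only -0.08 and -0.10, both still called. Against DMSO it fell by 0.64 under entinostat plus doxorubicin (adjusted p = 0.0100) and by 0.74 under the 3 drugs (adjusted p = 0.00413). The first was lost without replicate 1 of entinostat plus doxorubicin (0.0690) or DMSO replicate 2 (0.0658), the second without replicate 1 of the 3 drugs (0.0506). Doxorubicin alone against DMSO gave -0.43 (adjusted p = 0.106), which was called without doxorubicin replicate 1 (-0.62, adjusted p = 0.0433). Entinostat changes of RBL1 were not called, at -0.07 without doxorubicin and -0.26 with it (adjusted p = 0.140).

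RB1, the retinoblastoma protein itself, had signals of 223.2 and 160.1 under DMSO, 203.4 and 180.7 under ATRA, 204.4 and 150.2 under entinostat, and 139.8 and 136.1 under entinostat plus ATRA. Under doxorubicin they were 201.4 and 148.8, and under ATRA plus doxorubicin 160.7 and 139.1. Under entinostat plus doxorubicin they were 102.3 and 110.7, and under the 3 drugs 109.2 and 104.3. The 4 arrays with both drugs lay below all 12 others. Against the doxorubicin groups without entinostat the decrease was 1.33-fold (-0.41, SE 0.11, adjusted p = 0.0148), and against the entinostat groups without doxorubicin it was 1.29-fold (-0.37, adjusted p = 0.0149). Neither drug without the other changed RB1 past the threshold, with -0.21 for entinostat (adjusted p = 0.300) and -0.16 for doxorubicin (0.309). The test of the difference gave -0.21 (95% CI -0.53 to 0.12, adjusted p = 0.614).

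The RB1 calls were sensitive to single arrays. The entinostat call was lost without replicate 1 of doxorubicin (0.0606) or of ATRA plus doxorubicin (0.0608), and the doxorubicin call without entinostat replicate 1 (0.0762). With normexp fitted from the detection p-values the values shrank to -0.11 (0.0609) and -0.10 (0.0557). RB1 against DMSO was -0.58 under entinostat plus doxorubicin (adjusted p = 0.0103) and -0.57 under the 3 drugs (0.0114). Both were lost without DMSO replicate 1 (-0.40 in each, adjusted p = 0.130 and 0.142). The first was also lost without replicate 1 of entinostat plus doxorubicin (0.0606), and the second without either array of the 3 drugs (0.0504 and 0.0541).

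RBL2, which encodes p130, the pocket protein most associated with quiescent cells, was called in 0 of 13 comparisons in limma, and in 0 at an unadjusted p below 0.05. Its signals were 70.1 and 29 under DMSO and 121.4 and 26.1 under doxorubicin, and they ranged from 18.5 to 121.4 over all arrays. Replicate 1 was higher than replicate 2 in 8 of 8 groups, by a mean of 0.47 (log2). Over all tested genes, 6.23% had 1 replicate number higher in all 8 groups, and 3.37% had replicate 1 higher. The fit held no replicate block, so the difference between the RBL2 replicates entered its standard error, which was 0.22 for comparisons of 4 arrays with 4. The interval for doxorubicin without entinostat ran from -0.26 to 0.69. RB1 also had replicate 1 higher in 7 groups, whereas CDK2 and CDK4 each had it higher in 1 group.

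**Figure D3:**
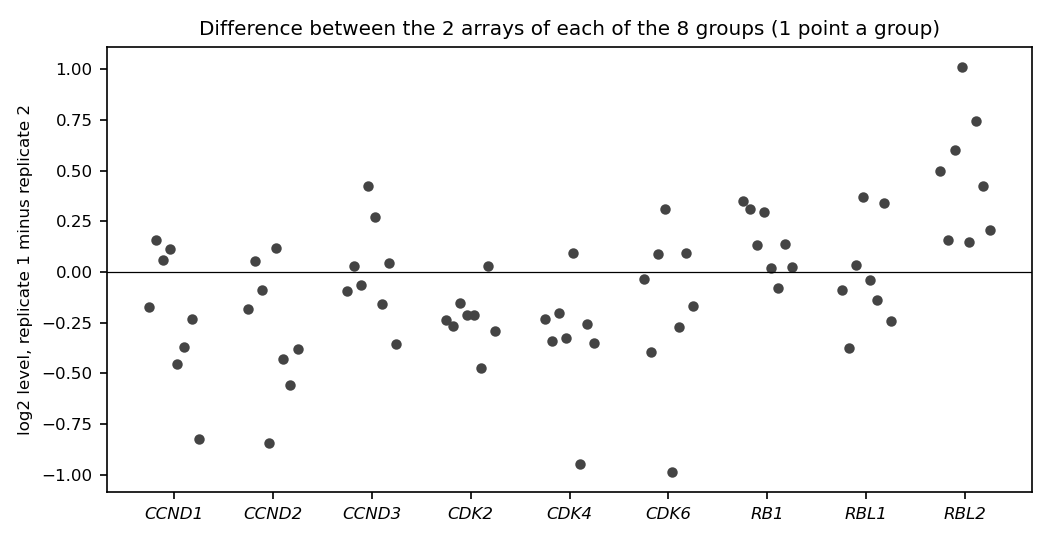
Difference between the 2 arrays of each group, as the log2 level of replicate 1 minus that of replicate 2, with 1 point for each of 8 groups. The points of RBL2 all lie above 0, with a mean of 0.47, and those of CDK2 and CDK4 lie above 0 in 1 group each.

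ATRA did not change any of the 9 genes past the threshold. Averaged over the other drugs, with 8 arrays against 8, ATRA changes ran from -0.10 (RB1) to 0.11 (CDK4). The widest interval was that of RBL2, from -0.40 to 0.27, and CDK4's ran from -0.15 to 0.38. ATRA alone against DMSO called 0 of the 9, with 0.0234% of all genes called, all higher (470 genes had an unadjusted p below 0.05). The average effect called 0 of the 9 against 0.111% of all genes (0.105% higher and 0.00584% lower; 745 at an unadjusted p below 0.05).

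In the comparisons with DMSO, which share the same 2 control arrays, the number of the 9 genes called ran from 0 under ATRA to 6 under entinostat plus doxorubicin. Entinostat called 1 higher, where 1.58% of all genes were called (1.32% higher and 0.257% lower), and entinostat plus ATRA 1 higher, against 2.46% (1.78% and 0.677%). Doxorubicin called 2 lower, against 13.6% of all genes (6.48% higher and 7.12% lower), and ATRA plus doxorubicin 2 lower, against 15% (7.4% and 7.57%). Entinostat plus doxorubicin called 1 higher and 5 lower, against 28% (13.2% and 14.8%), and the 3 drugs 1 higher and 4 lower, against 27.8% (13% and 14.8%). The higher gene was CCND2 each time. Entinostat called 0 without either array of DMSO or entinostat and with normexp fitted from the detection p-values. Entinostat plus ATRA called 0 without either DMSO array or its own replicate 1, and 1 higher and 1 lower without its replicate 2. Doxorubicin called 1 lower without either array of DMSO or ATRA, with an offset of 16, with no filter on detection, and with normexp fitted from the detection p-values, and 1 higher and 1 lower without its replicate 2. ATRA plus doxorubicin called 1 lower without either array of DMSO or of its own group and with normexp fitted from the detection p-values. It called 1 higher and 2 lower without any 1 array of doxorubicin or the 3 drugs, with a mean signal above 100 required, and in the authors' log2 table. Entinostat plus doxorubicin called 1 higher and 3 lower without either DMSO array, and 1 higher and 2 lower without its replicate 1. The 3 drugs called 1 higher and 2 lower without replicate 1 of that group.

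Averaged over ATRA, entinostat called 1 of the 9 higher without doxorubicin, where 7.47% of all genes were called (4.44% higher and 3.02% lower). With doxorubicin it called 1 higher and 3 lower, against 19.4% (9.19% and 10.2%). The latter count was 1 higher and 1 lower with normexp fitted from the detection p-values, and 1 higher and 2 to 4 lower when 1 array was left out. Doxorubicin called 1 higher and 3 lower without entinostat, against 26.2% of all genes (12.8% and 13.4%), and 1 higher and 5 lower with it, against 33.4% (15.8% and 17.6%). The last count was 1 higher and 3 lower with normexp fitted from the detection p-values, and 0 higher in the 3 fits that lost CDK2. The median change of the 9 genes was -0.16 for doxorubicin without entinostat and -0.37 with it, where the median of all genes was -0.0012 and -0.0036. The interaction of entinostat and doxorubicin called 0 of the 9 in limma, with 1.86% of all genes called (1.13% higher and 0.73% lower) and 2380 genes at an unadjusted p below 0.05. At that unadjusted level CDK6 and CCND3 had a difference, with the values given above.

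The group means of the 9 genes were also compared with each other and with other genes, as a description over 8 groups that share arrays and treatments. CCND1 and CDK6 were the most alike pair (Pearson r = 0.985), followed by CDK4 with CDK6 (0.964) and CCND1 with CDK4 (0.962). RBL1 had r = 0.949 with CDK6 and 0.930 with CCND1, whereas CCND2 had -0.438 with CCND1. Among about 2472 tested genes whose group means spanned at least 1 log2 unit, those most like CDK6 were ZC3H11B (0.997), GTF2H3 (0.996) and C6ORF136 (0.996). The genes most like CCND1 were PTPN12 (0.998), TAF6L (0.996) and PHIP (0.994), and those most like CCND2 were RAB17 (0.996), LMCD1 (0.996) and CXORF57 (0.994). RBL1 was most like NOP14 (0.999), LDOC1L (0.995) and SNRNP40 (0.992), and CCND3 most like ZFPM1 (0.979), MAD2L1BP (0.965) and TRIM47 (0.959). For CDK4 they were TMEM48 (0.992), ZNF511 (0.986) and SARS2 (0.984), for CDK2 FAM119B (0.978), LOC100128055 (0.967) and DDX49 (0.962), and for RB1 NAMPT (0.989), ACTR1A (0.975) and C9ORF30 (0.967). RBL2 had no close match, the best being HSPC157 (0.855), LOC647406 (0.847) and ADAMTS6 (0.832).

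The other genes of the pathway were described by lists, which were chosen with earlier results of these data known. They are given here mainly for the doxorubicin effects, which called 26.2% of all genes without entinostat (12.8% higher and 13.4% lower). With entinostat these effects called 33.4% (15.8% and 17.6%). The entinostat effects called 7.47% of all genes without doxorubicin (4.44% higher and 3.02% lower) and 19.4% with it (9.19% and 10.2%). Of the CDK inhibitors, 6 of 7 were tested; CDKN2A had signals of -9.3 to 3.8 and was detected on 0 arrays. Without entinostat, doxorubicin raised 2 of the 6, against 12.8% of all genes, and lowered 0, with a median change of 0.09. CDKN1A (p21) rose by 2.38 (SE 0.15, 5.20-fold, adjusted p = 5.06e-07), and CDKN1C (p57) by 0.58 (adjusted p = 0.0208). The CDKN1C call was lost without replicate 1 of doxorubicin or ATRA plus doxorubicin, or replicate 2 of DMSO or ATRA, each of which left 1 gene of the list called. With entinostat, doxorubicin raised 4 of the 6, against 15.8% of all genes, and lowered 0, with a median of 0.59: CDKN1C by 1.38, CDKN2C (p18) by 1.10 and CDKN1B (p27) by 0.67 led. Entinostat itself raised CDKN1A by 2.22 without doxorubicin (adjusted p = 2.17e-06), with CDKN2C (-0.71) and CDKN1B (-0.56) lower, and 2 of the 6 called in each direction (4.44% of all genes higher and 3.02% lower). The 2 called higher became 1 with an offset of 16, with an intensity trend, and with normexp fitted from the detection p-values. The second call was also sensitive to single arrays. With doxorubicin, entinostat raised 3 (9.19% of all genes) and lowered 0, led by CDKN1C (1.00), CDKN2D (0.74) and CDKN2C (0.60). With normexp fitted from the detection p-values, the CDKN1C call without entinostat (adjusted p = 0.336) and the CDKN2C decrease (0.0944) were lost. The deposited p-value called CDKN1A detected on 4 arrays, although its signals were 357.1 to 3433.7.

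**Figure D4:**
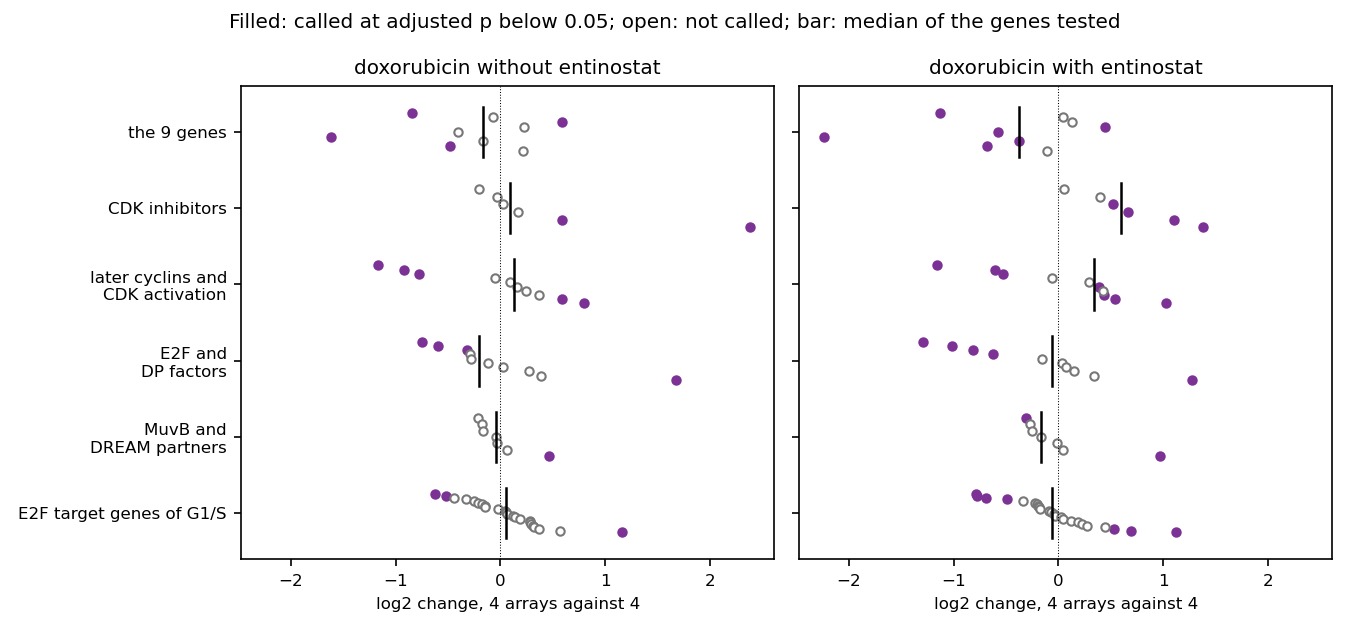
Log2 change under doxorubicin without entinostat (left) and with entinostat (right), 4 arrays against 4, for the 9 genes and 5 lists of their pathway; each point is a gene, filled where the adjusted p was below 0.05, and bars are medians of the tested genes. CDKN1A is the point furthest right on the left panel (2.38), and CDK6 the point furthest left on both (-1.62 and -2.24).

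Of 10 genes for later cyclins and CDK activation, doxorubicin without entinostat raised 2 and lowered 3 (median 0.13), against 26.2% of all genes called. Cyclin A2 (CCNA2) fell by 1.16 (SE 0.15, adjusted p = 6.31e-05), SKP2, which targets CDKN1B for degradation, fell by 0.92, and cyclin E1 (CCNE1) rose by 0.80. With entinostat, 4 rose and 3 fell (median 0.34), against 33.4% of all genes; CCNA2 fell by 1.16, MNAT1 (a subunit of the CDK-activating kinase) fell by 0.60 and cyclin A1 (CCNA1) rose by 1.03 (adjusted p = 0.0153). The CCNA1 call was held in 12 of 16 fits that each left out 1 array, with an adjusted p of 0.0799 without entinostat replicate 2, and was lost with normexp fitted from the detection p-values (0.0658). The 4 higher became 2 with that setting, and without replicate 1 of entinostat or entinostat plus doxorubicin or replicate 2 of entinostat plus ATRA, with 3 called lower in each.

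Of 10 E2F and DP factors, which the pocket proteins bind, doxorubicin raised 1 and lowered 3 without entinostat (median -0.20), against 12.8% and 13.4% of all genes. E2F2 rose by 1.67 (SE 0.17, 3.18-fold, adjusted p = 9.98e-06), while E2F4, the main partner of RBL1 and RBL2, fell by 0.74 and the E2F partner TFDP1 by 0.59. With entinostat it raised 1 and lowered 4 (median -0.06), against 15.8% and 17.6%, and here E2F4 fell by 1.30 (2.46-fold, adjusted p = 1.64e-05), E2F6 by 1.02, and E2F2 rose by 1.28 (2.42-fold). The count raised by doxorubicin was 2 without replicate 1 of doxorubicin in both comparisons, without replicate 1 of ATRA plus doxorubicin in the first, and without replicate 2 of doxorubicin in the second. Without doxorubicin, entinostat lowered 1 of the 10 (E2F5), against 3.02% of all genes, and raised 0. In the doxorubicin groups, entinostat lowered 5 of the 10, against 10.2% of all genes, and raised 0, led by E2F4 (-0.81), E2F8 (-0.54) and TFDP1 (-0.45). With normexp fitted from the detection p-values 3 were lowered, and E2F4 was not among them (adjusted p = 0.0559).

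MuvB is the core complex that RBL1 or RBL2 joins to repress cell cycle genes. The list of 7 MuvB and DREAM partners also holds MYBL1 and MYBL2. Of these 7, doxorubicin raised 1 without entinostat, LIN37 (0.46, adjusted p = 0.00839), where 12.8% of all genes were called higher. Without doxorubicin replicate 2, a further gene was called lower. With entinostat it raised LIN37 (0.97, 1.96-fold, adjusted p = 1.99e-05) and lowered LIN54 (-0.31, adjusted p = 0.0416), so that 2 of 7 were called against 33.4% of all genes. LIN54 was called in only 8 of 16 fits that each left out 1 array, being lost without either array of entinostat, ATRA or entinostat plus ATRA, replicate 1 of the 3 drugs, or replicate 2 of entinostat plus doxorubicin, which left 1 gene called. LIN37 was not tested where a mean signal above 100 was required.

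Of 24 E2F target genes of the G1/S transition, doxorubicin raised 1 and lowered 2 without entinostat (median 0.06). In the fit without a replicate block, this was below the 26.2% of all genes called. Doxorubicin raised 3 and lowered 4 with entinostat (median -0.06), near the 33.4% of all genes. Thymidine kinase (TK1) rose by 1.16 (SE 0.11, 2.23-fold, adjusted p = 9.84e-06) without and 1.12 with entinostat. The replicative helicase subunit MCM2 fell by 0.62 without (adjusted p = 0.00167) and 0.79 with entinostat. DNA polymerase alpha (POLA1) fell by 0.52 without entinostat, and the clamp loader subunit RFC4 by 0.78 with it. Without entinostat the count was 1 higher and 4 lower when doxorubicin replicate 1 was left out, and 3 higher and 2 lower when doxorubicin replicate 2 was. It was 2 higher and 2 lower without DMSO replicate 2 or without any 1 array of entinostat or entinostat plus ATRA. With entinostat the count was 6 higher and 3 lower without entinostat replicate 2, and 5 higher and 3 lower without replicate 2 of entinostat plus ATRA. Both comparisons called genes of the list in both directions. With the replicate block, doxorubicin without entinostat called 6 of the list higher and 3 lower. That fit called 5238 of all 17126 genes in this comparison. Without the block, entinostat lowered 1 of the 24 without doxorubicin (3.02% of all genes) and 5 with it (10.2%), and raised 0. Normexp fitted from the detection p-values lowered 0 and 2. Of 10 later cyclin and CDK activation genes, entinostat raised 1 and lowered 2 in each comparison. That normexp fit gave 0 and 0 without doxorubicin, and 1 and 1 with it. Of 7 MuvB and DREAM partners entinostat lowered 2 without doxorubicin and 1 with it.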

How the data were processed

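RNA of MDA-MB-231 cells was labelled with biotin and hybridised to Illumina BeadChip arrays, 16 in all. The deposited table gave, per the file headers, 1 intensity and 1 detection p-value per gene and array, and the authors' second table gave processed log2 values for 34684 names. Signals ran from -26 to 22098.4, and 27.5% to 28.2% of each array's values were below 0, so a background had been subtracted. The submitters' processing notes name limma. The step from probes to 1 value per gene is not described in the labels or file headers.

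In limma 3.58.1 (R 4.3.3), normexp with an offset of 50, quantile normalization and log2 were applied to the intensities in turn. Spike-in controls (92) and unnamed sequence clusters (3270) were left out. Genes with a detection p-value below 0.05 on at least 2 arrays were tested (17126). A model of the 8 group means with empirical Bayes moderation gave 7 comparisons with DMSO, the effects of entinostat and doxorubicin with and without each other, their interaction, and the ATRA average. P-values were adjusted by Benjamini-Hochberg over all tested genes and called below 0.05. The scripts were tested on simulated data.

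All 9 genes are named, with at most the 3 largest called changes of each pathway list and, for each of the 9, the 3 genes most like it. The genes and lists were chosen with earlier results of these data known. The alternatives were normexp fitted from detection p-values (offset 16), offset 16, the authors' log2 table, no filter, a mean signal above 100, a replicate block, an intensity trend, only the 4 arrays compared, and leaving out each array. The fit from detection p-values put the SD of the noise at 212 to 313, whereas negative signals alone gave 7.34 to 7.48. Promoter windows came from RefSeq. One marker of the list of other cell types is not reported here.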

Additional observations from a re-analysis of the deposited data

Results flagged for a closer look

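None of the 9 genes was called in the interaction test of entinostat effects with and without doxorubicin. In limma, CDK6 (-0.62, unadjusted p = 0.0218) and CCND3 (-0.45, 0.0129) were below 0.05 only before adjustment in the main fit. In the pathway lists 4 genes were called, where 1.86% of all genes were (1.13% higher and 0.73% lower). Of 6 CDK inhibitors 2 were called higher and 1 lower, and of 10 E2F and DP factors 1 was called lower. None was called of 10 later cyclin and CDK activation genes, 7 MuvB and DREAM partners or 24 E2F target genes. CDKN1A had an interaction of -1.98 (log2, SE 0.22, limma adjusted p = 0.000459): entinostat changed it by 2.22 without doxorubicin and by 0.24 with it, and doxorubicin by 2.38 without entinostat and by 0.40 with it. CDKN2C had an interaction of 1.31 (adjusted p = 0.00124), with entinostat changes of -0.71 and 0.60. CDKN1B had 0.70 (adjusted p = 0.0107), with -0.56 and 0.14. E2F6 had -0.74 (adjusted p = 0.0246), with 0.30 and -0.44; its call was lost without replicate 1 of DMSO, ATRA, ATRA plus doxorubicin or the 3 drugs, without replicate 2 of entinostat, ATRA or entinostat plus ATRA, and with normexp fitted from the detection p-values.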

How the results depend on the processing

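Of the results for the 9 genes, none turned its direction while called. Leaving out 1 array gave 26 to 352 called genes for entinostat against DMSO (270 with all arrays), 0 to 6 for ATRA (4), 917 to 2524 for doxorubicin (2329), 124 to 543 for entinostat plus ATRA (421), 3331 to 5026 for entinostat plus doxorubicin (4803), 1042 to 2855 for ATRA plus doxorubicin (2564) and 3155 to 4996 for the 3 drugs (4768). It gave 625 to 1452 for entinostat without doxorubicin (1279), 2153 to 3389 for entinostat with doxorubicin (3322), 3563 to 4607 for doxorubicin without entinostat (4494), 4879 to 5931 for doxorubicin with entinostat (5715), 152 to 549 for the interaction (318), 8 to 26 for the ATRA average (19) and 5115 to 6042 for the F test (5844). Normexp fitted from detection p-values called 129 for entinostat (87 higher, 42 lower, against 226 and 44), 0 for ATRA, 274 for entinostat plus ATRA (140 and 134, against 305 and 116) and 2 for the ATRA average. ATRA against DMSO called 1 with an offset of 16, 2 in the authors' table and 10 with the 4 arrays alone, where doxorubicin called 1030 and entinostat plus ATRA 279 higher and 54 lower. A mean signal above 100 called 208 for the interaction (104 higher and 104 lower, against 193 and 125) and 3878 in the F test; RBL1 and RBL2 were below it. Deviations of replicate 1 from the group mean were positively correlated between groups (0.0194 to 0.4241, above 0.1 in 26 of 28 pairs of groups). Arrays with the same replicate number thus shared part of their spread. Except where a replicate block is named, the fits above left that part in their standard errors. With the replicate block the counts were 546 for entinostat, 10 for ATRA, 800 for entinostat plus ATRA, 684 for the interaction and 32 for the ATRA average (27 higher and 5 lower, against 18 and 1), and CDK4 under doxorubicin without entinostat (adjusted p = 0.0234), CDK4 under the 3 drugs (0.0334) and CCND3 under ATRA plus doxorubicin (0.0453) were called. Of the pathway lists under doxorubicin without entinostat, the block called 6 of the E2F target genes of G1/S higher and 3 lower (1 and 2 without it), and 2 of the E2F and DP factors higher and 5 lower (1 and 3). With entinostat, it called 6 of the later cyclins and CDK activation genes higher and 3 lower (4 and 3), and 2 of the E2F and DP factors higher and 4 lower (1 and 4). The cause of these shifts was not tested. RB1, RBL1 and RBL2 were dim, which limits the size of change their values can show above the offset.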
